A study of Drosophila melanogaster with 37 samples.

Results

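Of 2248 transcription units that carry a single gene symbol of the form CR followed by digits, 910 (40.5%) overlapped a unit on the other strand and are described here. CR symbols mark Drosophila genes annotated without a protein-coding frame. The 910 units were taken from the annotation of 15991 units deposited with the series, in build dm6, by 4 conditions: a place on X, 2L, 2R, 3L, 3R or 4, exactly 1 gene, a CR symbol, and at least 1 bp shared with an opposite-strand unit, termed its partner below. A unit is a stranded interval given by arm, start and end. The other 1338 CR units of these arms had no such overlap.

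The series itself sequenced nascent RNA held by immunoprecipitated RNA polymerase II (mNET-seq) in 37 samples of stage 15 Drosophila melanogaster embryos. Embryos were male or female, from mothers with a control RNAi or with a UAS-mof RNAi that depletes MOF, the histone H4 acetyltransferase of the dosage compensation complex, and the polymerase was total or phosphorylated at serine 2 or serine 5 of its C-terminal domain. Read coverage was not analysed here, so no value below is a level of transcription, no depth can be given, and no knockdown, sex or polymerase form is compared. The values are positions and lengths of annotated intervals. Units are a census of the annotation and not replicates, so shares and medians are given side by side without a test.

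Antisense transcripts are RNAs read from the strand opposite to another gene. An antisense gene may start inside its partner and run out through the partner's promoter, may meet the partner's 3' end, or may lie wholly inside a long gene, often in an intron. In several organisms such transcripts can pair with the sense RNA, change chromatin at its promoter, or arise from polymerase that fires in both directions at a shared promoter. Strand-specific nascent RNA methods separate the signals of overlapping genes, which unstranded methods sum.

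The label was checked against RefSeq's gene classes for the same assembly, which covered 909 of the 910. RefSeq classed 875 (96.2%) as non-coding RNA: 455 as antisense RNA, 419 as long non-coding RNA (lncRNA) and 1 as another non-coding RNA. The other classes were 33 pseudogenes and 1 protein-coding gene, CR45207, CG45207 in RefSeq. CR43476 was not matched. CR45207 (583 bp, 3R, 15774754 to 15775336, minus strand) lay inside CG4525, and CR43476 inside CG42534; both were singled out after their values were seen.

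Each overlap was classed with respect to the partner. An internal unit lies within the partner, an enclosing unit contains the partner, a start-overlapping unit covers the partner's 5' end in a head-to-head overlap, and an end-overlapping unit covers its 3' end in a tail-to-tail overlap. By their largest overlap, 564 of the 910 were internal (62.0%), 213 start-overlapping (23.4%), 85 end-overlapping (9.34%) and 48 enclosing (5.27%). There were 959 pairs with 873 partners. A single partner was found for 867 CR units, 39 had 2, and 4 had 3 or more. In 39 CR units the pairs fell into more than 1 class.

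**Figure D1:**
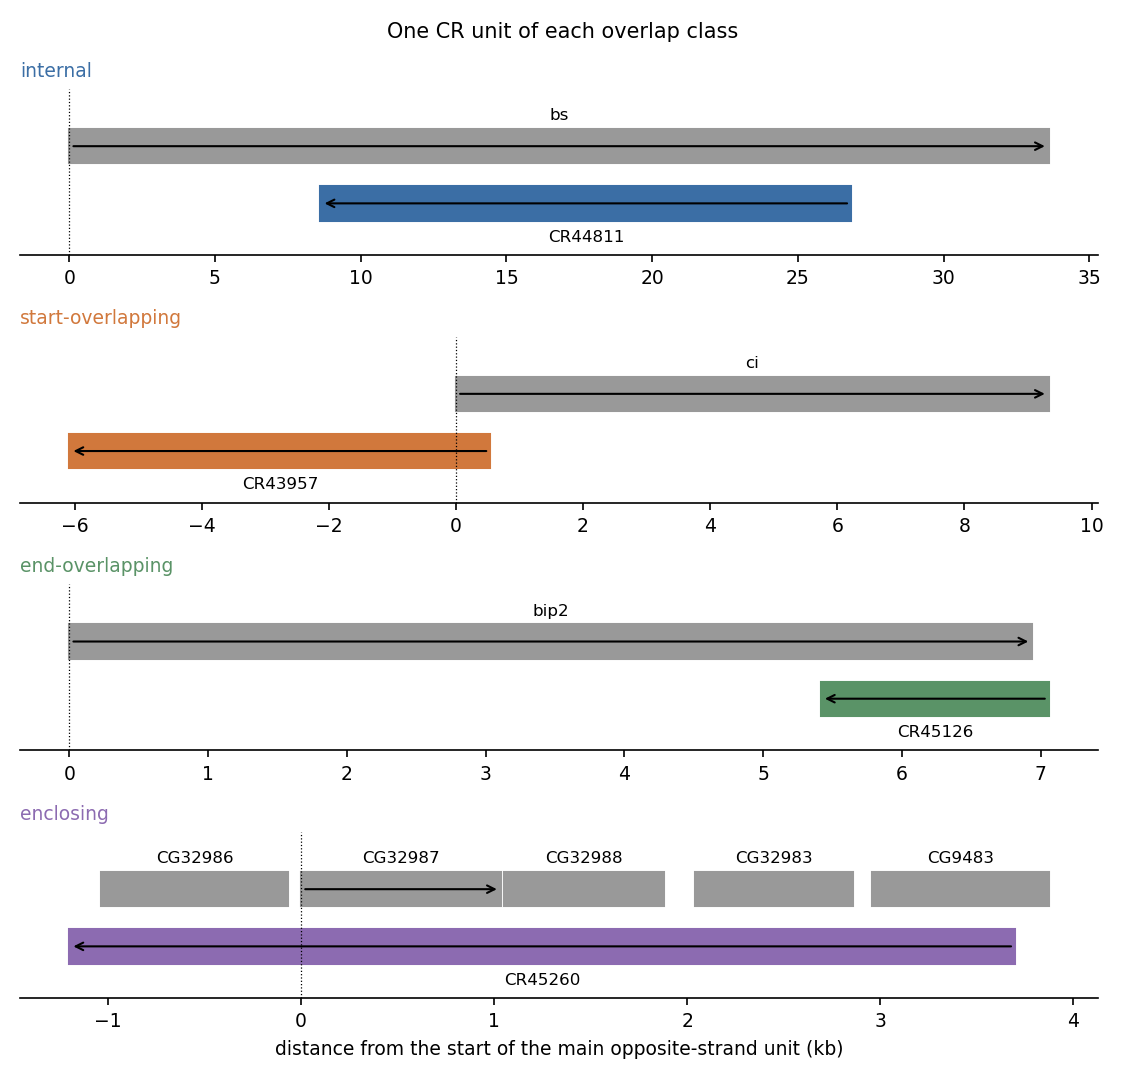
Maps of a CR unit from each class (coloured) and its opposite-strand partners (grey), with distance from the start of the main partner in kb on the x axis and arrows for the direction of transcription. CR44811 lies inside bs, CR43957 shares 545 bp of start with ci, CR45126 covers the last 1527 bp of bip2, and CR45260 contains 4 units and overlaps the start of CG9483.

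The mix of classes differed from that of protein-coding units. Among units that overlapped an opposite-strand unit with a protein-coding gene, 539 of 819 CR units were internal (65.8%) against 1004 of 4101 single-gene protein-coding units (24.5%). Start overlaps made up 22.1% of these CR units and 7.29% of the protein-coding units. Tail-to-tail overlap was the leading class of protein-coding units at 58.2% and was found for 8.30% of the CR units. Enclosing overlaps were found for 31 and 410 units. A nested pair of single-gene protein-coding units could count from both sides, as internal and as enclosing, and a tail-to-tail pair as an end overlap for each. CR units were counted from their own side only, so the shares are not like for like. The 910 CR units were also shorter, with a median of 839 bp against 2074 bp for single-gene protein-coding units. The share of units with any opposite-strand overlap was similar, at 40.5% for CR units, 38.5% for single-gene protein-coding units (4582 of 11913) and 39.4% for all units of the 6 arms (6242 of 15848).

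**Figure D2:**
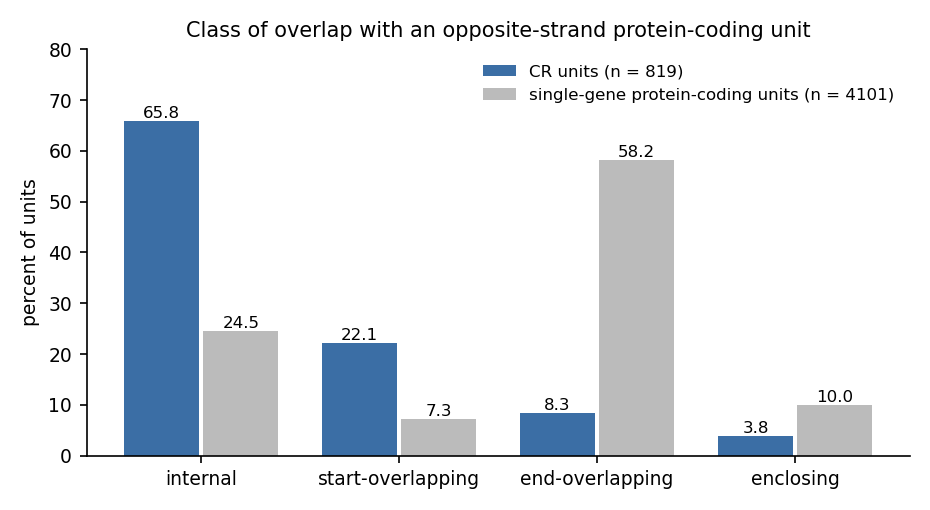
Percent of units in each overlap class (y axis), for 819 CR units and 4101 single-gene protein-coding units that overlap an opposite-strand protein-coding unit. Internal overlap leads among CR units at 65.8% and end overlap among protein-coding units at 58.2%. Pairs of protein-coding units can count from both sides, while CR units count from their own side only. Each bar is a census share without an error.

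The overlapping CR units were short, and longer than CR units without overlap. Their median length was 839 bp (interquartile range 537 to 1500), against 632.5 bp (433 to 954) without overlap, 1839 bp for all units and 2074 bp for single-gene protein-coding units. Internal CR units had the shortest median at 771 bp, then start-overlapping at 846 bp, end-overlapping at 1098 bp and enclosing at 2055.5 bp. A single transcript was annotated for 777 of the 910 (85.4%), against 89.9% of the CR units without overlap and 51.2% of single-gene protein-coding units. CR45139 had the most, with 6.

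Longer CR units overlapped another unit more often. All CR units were ranked by length and divided into 10 groups. In the shortest group, up to 340 bp, 57 of 225 were antisense (25.3%). In the longest group, from 2037 bp, 140 of 224 were (62.5%). The share did not climb at every step, with 28.4% in the group of 505 to 601 bp after 33.3% in that of 422 to 505 bp. The longest group held 24 of the 48 enclosing CR units. A longer interval also has more room to meet another, so length and overlap are not separate properties.

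**Figure D3:**
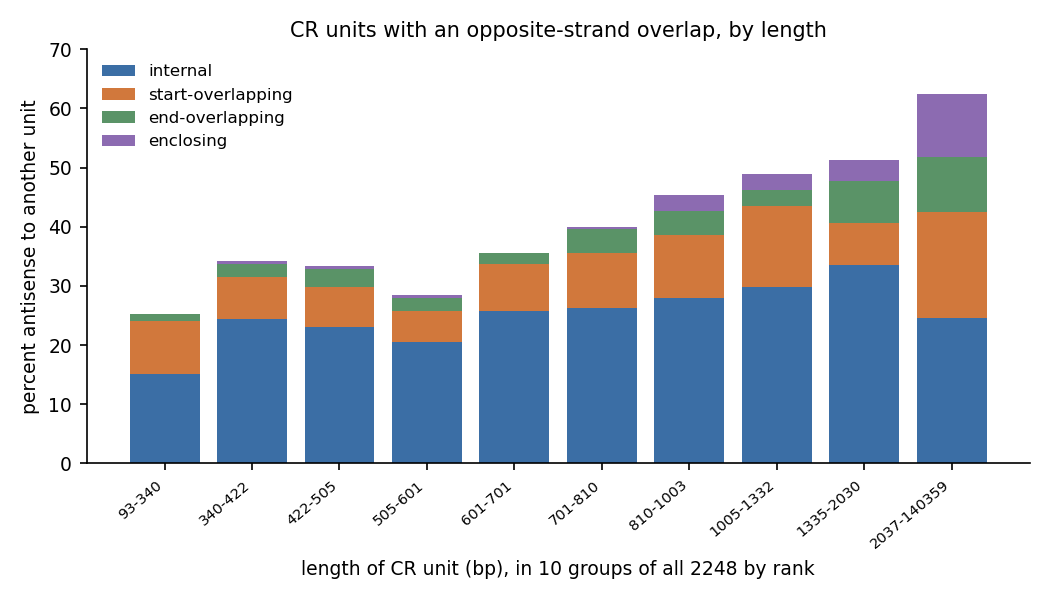
Percent of CR units that overlap an opposite-strand unit (y axis) in 10 groups of 224 or 225 CR units ranked by length in bp (x axis), coloured by overlap class. The share goes from 25.3% in the shortest group to 62.5% in the longest.

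Among internal CR units, the partner was usually many times longer than the CR unit. Partners of the internal class had a median length of 17464 bp, and the CR unit covered a median of 5.20% of the partner (interquartile range 1.59 to 16.6%). The midpoint of the CR unit fell at a median of 47.6% of the partner's length from its start. From the start to the end of the partner, in steps of 20% of its length, 124, 104, 144, 110 and 82 midpoints were counted, so the last 20% held the fewest (14.5%). The 3' end of the CR unit came within 500 bp of the partner's start in 80 of 564 cases (14.2%), its start within 500 bp of the partner's 3' end in 90 (16.0%), and in 425 (75.4%) neither was that close.

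The 3 largest internal overlaps ran from 14499 to 18213 bp. CR44811 (18213 bp, 2R, 24351477 to 24369689, minus strand) covered 54.2% of the unit of bs, which encodes the serum response factor homologue and also holds a tRNA gene. CR45137 (15649 bp, 2R, 12783611 to 12799259, minus strand) covered 72.9% of sca, a secreted protein of the Notch pathway in neural precursors. CR45224 (14499 bp, 3R, 22194979 to 22209477, minus strand) covered 8.93% of a unit of 162297 bp that merges SKIP, Gld2 and mir-1010. RefSeq classes the CR units over bs and sca as antisense RNA and CR45224 as a lncRNA.

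The 3 shortest internal CR units began within 808 bp of the start of their partners. Other short ones began far from it, such as CR41571 (252 bp), 155545 bp inside the unit of Myo81F and CR12798. CR43701, at 93 bp the shortest of the 910 (3L, 1488739 to 1488831, plus strand), began 808 bp downstream of the start of stet, a rhomboid protease of EGF receptor signalling. RefSeq lists it as a small non-coding RNA. CR43956 (201 bp, chromosome 4) began 654 bp inside CG32000, and CR44410 (230 bp, 2L, 17589471 to 17589700, minus strand) began 516 bp inside Oli, a basic helix-loop-helix factor of the Olig family. At the other extreme of coverage, CR43465 (1167 bp, 2L, 5969859 to 5971025, minus strand) had the same start and end as Ucp4B, a mitochondrial carrier of the uncoupling protein family, and CR44304 (722 bp, 2R, 11844378 to 11845099, minus strand) the same as CG43190. These were the only 2 pairs with equal ends, singled out after their values were seen and counted as internal.

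Long protein-coding units overlapped an antisense CR unit, of any class, more often than short ones. Of protein-coding units over 50000 bp, 100 of 306 had a CR partner (32.7%), against 53 of 2390 up to 1000 bp (2.22%) and 773 of 13001 in all (5.95%). Counted per length, and for the internal class alone, CR units numbered 5.74 per Mb of protein-coding unit. This density ran from 3.597 per Mb in units up to 1000 bp to 7.82 in units of 2000 to 5000 bp, and was 4.32 in units over 50000 bp.

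Start-overlapping CR units share sequence with the 5' end of their partner, so that each start lies inside the other unit. Here the distance between the starts had a median of 487 bp (interquartile range 205 to 969), and was at most 100 bp in 23 of 213 CR units (10.8%) and at most 500 bp in 109 (51.2%). The overlap took a median of 66.2% of the CR unit and 18.0% of the partner. A CR unit of this class therefore typically had more of its length inside the partner than upstream of it.

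**Figure D4:**
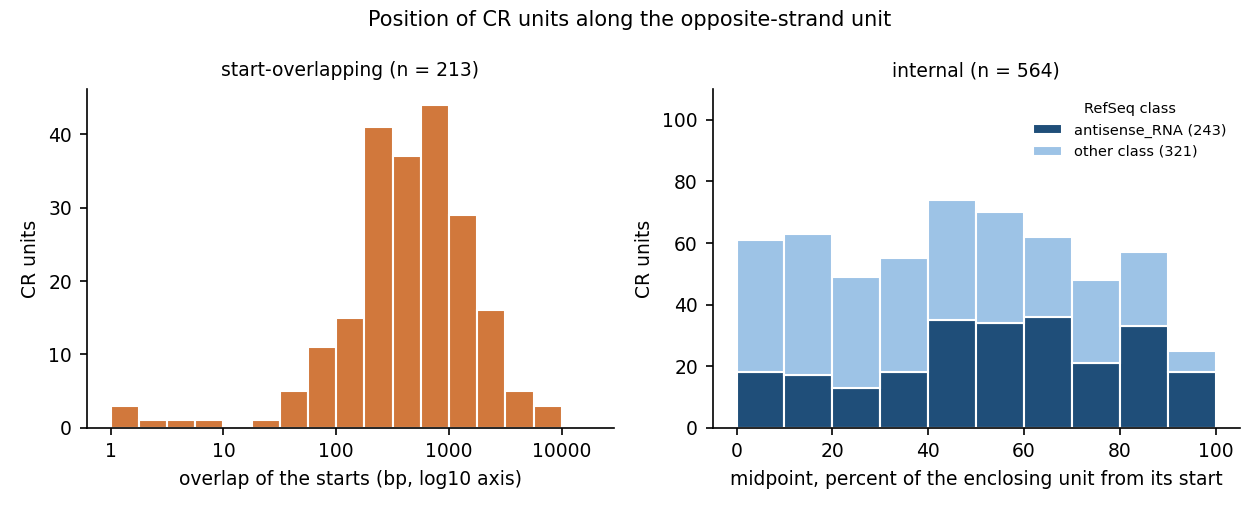
Left, number of start-overlapping CR units by the bp they share with the partner's start (log10 axis, n = 213), with most between 100 and 1000 bp. Right, number of internal CR units (n = 564) by the position of their midpoint along the enclosing unit in percent from its start, with RefSeq's 243 antisense RNAs in dark blue.

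The deepest start overlap was that of CR45363 (9615 bp, 2L, 4361689 to 4371303, minus strand), which shared 9379 bp with Traf4, an adaptor of TNF receptor signalling, and reached 236 bp upstream of its start. CR45139 (6329 bp, 2R, 3943429 to 3949757, plus strand) shared 5997 bp with uex, which encodes a CNNM family magnesium transporter. CR45223 (6576 bp, 3R, 17646903 to 17653478, minus strand) shared 5800 bp with a unit of CG14322, CR45045 and 2 tRNA genes. These CR units lay almost wholly within their partners, at 97.5%, 94.8% and 88.2% of their length.

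The shallowest start overlaps were of 1 bp and joined CR units to each other. CR44455 (474 bp) and CR44456 (401 bp), on opposite strands of 2R, both start at position 23128077. CR43482 (352 bp) and CR43483 (467 bp), both pseudogenes in RefSeq, both start at 9386112 on 3L. An annotated distance of 0 bp between starts describes the gene models and not starts measured in these embryos.

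End-overlapping CR units met the 3' end of their partner over a median of 456 bp (interquartile range 70 to 1151), which was longer than the 80 bp (33 to 192) of single-gene protein-coding units in the same class. CR44069 (5154 bp, 2R, 9610464 to 9615617, plus strand) shared 4479 bp with the unit of Mmp2, a matrix metalloproteinase, mir-307a and CR44070. CR46089 (5069 bp, 3R, 23052916 to 23057984, plus strand) shared 3575 bp with a unit of CG17119 and sav, a scaffold of the Hippo pathway. CR45621 (3673 bp, X, 12612108 to 12615780, minus strand) shared 3423 bp with CG2543 and covered 93.4% of it. The smallest were 2 bp between CR43356 and crok, a Ly6 protein of septate junctions, 6 bp between the pseudogene CR43669 and a unit that holds squ, grp, CG33552 and 4 miRNA genes, and 7 bp between CR44814 and eEF5, a translation factor. Overlaps of at most 50 bp made up 17 of the 85.

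Enclosing CR units contained small partners, with a median of 958 bp against 2055.5 bp for the CR unit. CR44169 (6940 bp, 2R, 6873149 to 6880088, plus strand) contained Spn42Da, a serpin protease inhibitor, overlapped 2671 bp at the start of CG9447 and covered 804 bp at the end of Spn42Db. CR45604 (5913 bp, X, 11089231 to 11095143, minus strand) contained the unit of Vago, a secreted factor of antiviral responses, and CG2076. CR44690 (5000 bp, X, 2175817 to 2180816, minus strand) contained Cyp4d2 and shared 1810 bp with the start of Cyp4ae1, both cytochrome P450 genes, and 39 bp with the end of CR45479.

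The CR unit with the most partners was CR45260 (4902 bp, 2L, 8862610 to 8867511, minus strand). It contained CG32986, CG32987, CG32988 and CG32983, of 821 to 1037 bp, and shared 745 bp with the start of CG9483. The smallest contained partners were other non-coding genes. CR44066 contained tRNA:Arg-TCT-3-1 (73 bp), CR45949 contained mir-87 (99 bp), and CR45330 contained the spliceosomal RNA gene snRNA:U2:34ABc (192 bp).

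Most partners were protein-coding, as were most units of the 6 arms. Of the 15848 units of these arms, 13001 held a protein-coding gene, and of the 873 distinct partners 773 did (88.5%). The share is therefore not read as a preference for such partners. The main partner held a protein-coding gene for 816 of the 910 CR units (89.7%), and 819 (90.0%) had such a unit among all their partners. Where the main partner held none, 25 of 94 CR units were internal (26.6%), against 62.0% overall. The main partner merged several genes for 224 CR units (24.6%), while 7.19% of all units did so. The first share is per CR unit, so a partner with several CR units counts more than once, and the second is per unit. Unit length was not matched, and long units overlapped CR units more often. For a merged partner, the class refers to the whole interval and not to each gene in it.

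Some CR units overlapped each other, 83 of them in 43 pairs. The largest such overlap involved CR44997, which at 140359 bp was also the longest of the 910 (X, 22657324 to 22797682, plus strand). It contained CR44109 (2139 bp). CR46336 (2443 bp) and CR46337 (1693 bp) on 2R shared 1692 bp tail to tail, all but 1 bp of CR46337. CR45553 (2023 bp) and CR45552 (3582 bp) on 3R shared 1507 bp head to head. The second longest CR unit, CR46003 (21055 bp, 3L, 10286900 to 10307954, minus strand), overlapped the start of the unit of CR46004 and mir-276b by 1277 bp, and CR44811 was the third longest.

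RefSeq's own class of antisense RNA split the 910 evenly, with 455 in it, and held 0 of the 1338 CR units without overlap. An antisense RNA lies opposite another gene by definition, so the 0 follows from the class and is no outside check of the choice of units. The class and the units both come from gene models of the same species, so they are not independent measurements. RefSeq lists 503 antisense RNA genes in all. Besides the 455, 27 lay in units that merge several genes and overlap an opposite-strand unit, 5 in single-gene units with such an overlap but without a CR symbol here, and 16 were not matched by name to a unit.

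The antisense RNA class was not spread evenly over the geometry. It took in 139 of 213 start-overlapping CR units (65.3%), 30 of 48 enclosing (62.5%), 43 of 85 end-overlapping (50.6%) and 243 of 564 internal CR units (43.1%). The CR units in this class were longer than those classed as lncRNA, with medians of 971 bp and 718 bp. Their main partners were shorter, with medians of 3764 bp and 22013 bp, and the CR unit covered a median of 22.0% of the partner, against 2.88%. The main partner held a protein-coding gene for 99.1% of the antisense RNAs and 81.1% of the lncRNAs.

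Among internal CR units of these RefSeq classes, the antisense share was lower the longer the enclosing unit was, apart from the shortest group. It was 35 of 43 (81.4%) for partners up to 2000 bp, 80 of 92 (87.0%) for 2000 to 5000 bp, 43 of 62 (69.4%) for 5000 to 10000 bp, 40 of 94 (42.6%) for 10000 to 20000 bp, 31 of 125 (24.8%) for 20000 to 50000 bp and 14 of 129 (10.9%) above. Over all 564 internal CR units, the share classed as antisense RNA was 28.2% where the midpoint lay in the first 20% of the partner and 62.2% in the last 20%. The exons of the partners were not analysed here, so overlap with an exon and with an intron cannot be told apart.

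**Figure D5:**
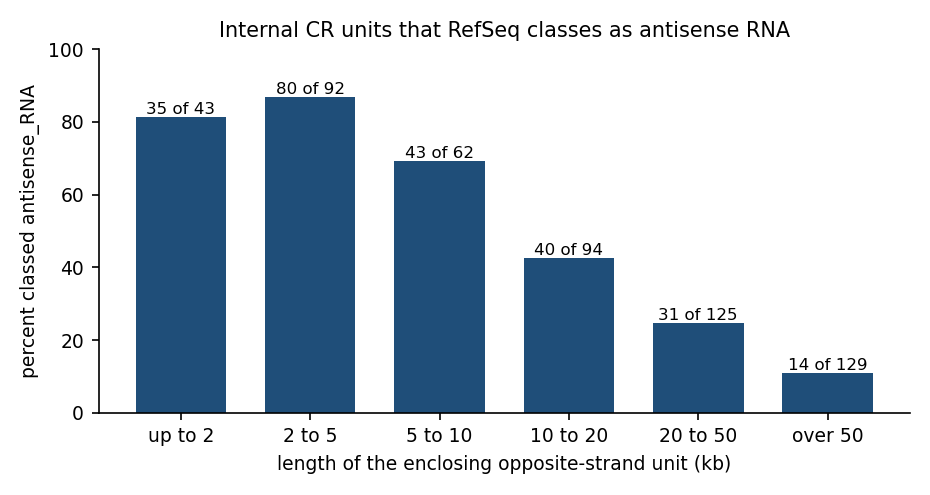
Percent of internal CR units that RefSeq classes as antisense RNA rather than lncRNA (y axis), by the length of the enclosing opposite-strand unit in kb (x axis), with counts above the bars. The share is 87.0% for enclosing units of 2 to 5 kb and 10.9% for those over 50 kb.

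The 33 pseudogenes had 11 end overlaps, against 43 among the 455 antisense RNAs and 31 among the 419 lncRNAs. Pseudogenes were 3.63% of the overlapping CR units and 10.5% of those without overlap. By the number in their symbol, 9 of these pseudogenes lay below 30000, 9 from 30000 up to 40000 and 5 from 40000 up to 43000. Of CR units numbered 46000 and above, 114 of 192 were antisense (59.4%), against 19.7% to 42.9% in the lower ranges.

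By arm, 3R had 210 of the 910, 3L 206, 2L 191, 2R 169, X 119 and chromosome 4 had 15. The antisense share of CR units was lowest on 2L, at 191 of 580 (32.9%). X followed at 38.9% and 3L at 42.6%, with 44.4% and 44.7% for 3R and 2R. Chromosome 4 had the highest share, 55.6%, from 27 CR units. The X, the chromosome that is dosage compensated in males, held 13.1% of the overlapping CR units, 14.0% of the CR units without overlap and 15.1% of all units. Internal CR units were between 50.3% (2R) and 68.4% (3L) of each arm.

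All 15 of chromosome 4 are named here. PlexB, a semaphorin receptor, held CR45124 (601 bp), and yellow-h held CR46065 (537 bp). CR43957 (6628 bp, 56497 to 63124, plus strand) overlapped the start of ci, the transcription factor of Hedgehog signalling, by 545 bp and ran 6083 bp upstream of it. CR45198 (420 bp) overlapped the start of CG33978 by 185 bp. dati, a zinc finger gene, had CR44027 (559 bp) over its start by 210 bp and CR45125 (552 bp) inside it.

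The 3' ends of other chromosome 4 genes were covered by CR45126 (1646 bp), 1527 bp into bip2, a TFIID subunit gene, by CR44030 (3018 bp), 352 bp into fuss, a Ski family gene, and by CR44031 (1497 bp), which covered 99.7% of CG11077. The long unit of unc-13 (44508 bp), a synaptic vesicle priming factor, held CR43425 (3603 bp), CR44029 (5379 bp) and CR43361 (2746 bp). CR43425 began exactly at the annotated 3' end of unc-13. The glutamate receptor gene Ekar held CR44028 (455 bp) and the forkhead gene fd102C held CR33797 (700 bp), both pseudogenes like CR43361. CR43956 in CG32000 completes the chromosome, on which RefSeq classes 10 of the 15 as antisense RNA.

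Genes that the study's subject and the embryonic stage make relevant were looked up among the partners. Of 123 genes in 12 lists, 20 were partners (16.3%), with 26 CR units over their units, against 915 of 13831 protein-coding genes (6.62%). A gene was counted as a partner by its unit, so in a merged unit the CR unit may lie over another gene. The listed genes lay in long units (median 6785 bp against 2376 bp), and the lists were chosen with earlier results of these data known. Of the 26 CR units, 20 were internal to the listed gene's unit, 5 overlapped its start and 1 its end. None of the 8 genes of the list that holds the MSL complex, its roX RNAs and the DNA-binding adaptor Clamp was a partner, mof included. Nor was any of 9 gap and terminal genes, 10 NK homeobox and muscle genes or 7 sex determination genes. In lists of 7 to 10 genes a count of 0 is near the share of 6.62%, so it does not set these genes apart.

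Axon guidance and adhesion had the most partners, 6 of 15, in units with a median of 52624 bp. Of all protein-coding units over 50000 bp, 32.7% had a CR partner, so the count is near the share of units of that length. Dscam1, the axon guidance receptor of many isoforms, held CR45129 (9300 bp, 2R, 7325896 to 7335195, plus strand) and CR44071 (351 bp). Ten-m, a teneurin, held CR45963 (854 bp) and CR45964 (800 bp), and the merged unit of its relative Ten-a held CR43961 (2940 bp). The guidance receptor robo2 had CR44897 (1586 bp) inside its unit, its ligand sli had CR44373 (801 bp), and kirre, of myoblast fusion, had CR43494 (498 bp). Of 12 genes of neuronal excitability, in units with a median of 51456.5 bp, 1 was a partner (8.33%). This is near the 6.62% of all protein-coding genes and below the 32.7% of units over 50000 bp. A count of 1 in so short a list is not read as a trait of these genes. The partner was nAChRalpha6, an acetylcholine receptor subunit, with CR43766 (506 bp) inside.

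Among pair-rule genes, 2 of 8 were partners (25.0%, against 6.62% of all protein-coding genes), both overlapped at the start. A count of 2 among 8 genes is not read as a trait of pair-rule genes. CR43948 (2589 bp, 2R, 9976996 to 9979584, minus strand) shared 266 bp with eve, and CR44592 (765 bp, 2L, 12085649 to 12086413, plus strand) shared 179 bp with prd, both homeobox transcription factors of segmentation. RefSeq classes both CR units as antisense RNA.

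Among Hox and related genes, 2 of 11 were partners (18.2%, against 6.62% of all protein-coding genes), both with internal CR units classed as lncRNA. The units of this list had a median of 22836 bp. Of all protein-coding units of 20000 to 50000 bp, 17.4% had a CR partner, so the count is near the share of units of that length. Scr, which specifies head and thorax segments, shares its unit with CR45902 and CR45903, and this unit held CR45901 (885 bp), CR45904 (490 bp) and CR45905 (943 bp), at distances of 12373 to 16618 bp from its start. Abd-B, the most posterior Hox gene, held CR46267 (1864 bp, 3R, 16951907 to 16953770, plus strand). Of 10 segment polarity and signalling genes, 3 were partners (30.0%, against 6.62% of all protein-coding genes). Their list had a median unit of 14656.5 bp, and 11.9% of protein-coding units of 10000 to 20000 bp had a CR partner. A count of 3 in so short a list is not read as a trait of these genes. The partners were ci as above, the Hedgehog receptor ptc with CR44281 (800 bp) and the BMP receptor tkv. The unit of tkv held CR44744 (1051 bp) and the pseudogene CR14033 (1541 bp). Of 12 neural fate genes, 1 was a partner (8.33%), near the 6.62% of all protein-coding genes. This was pros, a homeobox factor of neuroblast division, with CR46008 (757 bp) and CR46010 (496 bp) inside its unit.

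Polymerase pausing and elongation had 3 partners among 13 genes (23.1%, against 6.62% of all protein-coding genes). A count of 3 in so short a list is not read as a trait of these genes. CR44265 (967 bp, 3R, 21223623 to 21224589, minus strand) overlapped the first 886 bp of Nelf-A, a subunit of the negative elongation factor that holds polymerase near promoters. CR43889 (839 bp, 3L, 19909365 to 19910203, plus strand) began 850 bp inside the unit that merges the nucleosome remodeller Mi-2 with the elongation factor gene Su(Tpl), and its end came 12 bp from that unit's start. CR44161 (2423 bp) lay inside the unit of bin3, whose human homologue caps the RNA that sequesters P-TEFb, and tomboy40.

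Heat shock genes, a classic setting of paused polymerase, had 2 partners among 8 (25.0%, against 6.62% of all protein-coding genes). A count of 2 in so short a list is not read as a trait of the class. CR43481 (2960 bp, 3L, 9378160 to 9381119, plus strand) overlapped 1375 bp at the start of Hsp67Ba, 79.3% of that unit. CR43483 covered the last 49 bp of Hsp27 and shared its start position with CR43482, so 3 units in a row overlapped there.

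A few partners held several CR units. Of 873 partners, 804 had 1, 55 had 2, 11 had 3 and 3 had 4. The unit of kis, a chromatin remodeller, on 2L (40089 bp, 210735 to 250823, minus strand) held CR44220, CR44222, CR44221 and CR44218, of 400 to 1190 bp. The unit of CG32085 and CR45883 on 3L held CR45881, CR45880, CR45882 and CR45884, of 362 to 761 bp, all between 7370 and 14025 bp from its start. The unit of Myo81F and CR12798 on 3R, at 1965857 bp the longest of the 6 arms, held CR41571, CR46123, CR46122 and CR40182, of 252 to 901 bp. In all, 155 CR units (17.0%) shared a partner with another.

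Neighbours without overlap were sparser around these CR units than around protein-coding units. The nearest unit on the same strand lay at a median of 2328 bp, close to the 2438 bp of CR units without overlap and against 952 bp for single-gene protein-coding units. It was farthest for internal CR units, at 3761.5 bp, then 1939 bp for end-overlapping, 1098 bp for start-overlapping and 1070 bp for enclosing CR units. A divergent start within 500 bp upstream, from an opposite-strand unit that does not overlap, was found for 82 of the 910 (9.01%), for 14.3% of the CR units without overlap and for 27.2% of single-gene protein-coding units. By class the share was 3.19% for internal, 8.45% for start-overlapping, 31.3% for enclosing and 36.5% for end-overlapping CR units, and the overlap itself fills the upstream flank in the first 2 classes.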

How the data were processed

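The series holds 37 mNET-seq samples in 12 groups of 2 to 4, grouped by polymerase form, sex and RNAi from their titles. Build dm6 and the tools STAR 2.7.4a, cutadapt 2.8, DESeq2, DESeq and SAMtools 1.20 are named, per the submitters' processing notes. What each tool was used for is not given. The single file analysed was an annotation of transcription units, which the authors deposited in GFF version 2, per the file headers an export of rtracklayer 1.48.0. How genes were merged into units is not stated.

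Coordinates are 1-based. Opposite-strand overlap needed 1 bp. A CR unit with several partners took the class of its largest overlap. RefSeq classes were looked up by gene name on the same arm, with synonyms used where they pointed to 1 gene. Divergent starts and near neighbours used 500 bp. The CR units and lists were chosen with earlier results of these data known. Named CR units were those with the 3 largest and 3 smallest overlaps per class, the 3 longest, the 3 with the most partners, the 3 largest pairs of CR units, all of chromosome 4, those over listed genes, and those of the 3 partners with the most. The overlap and class functions were tested on simulated data against plain loops. CR genes inside merged units (296) were left out. Promoter motifs, which need sequence, were not analysed. Computation used Python 3.11.15, numpy 2.4.6, pandas 2.3.3, scipy 1.17.1 and matplotlib 3.10.9.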

Additional observations from a re-analysis of the deposited data

How the results depend on the processing

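No paired analysis was possible because the result comes from no sample values. Of 129 alternative values, 112 stayed within the 95% binomial interval of the value reported (for counts, within 1.5 times) and 17 moved; these intervals serve as a yardstick only. With overlap of at least 50% of the shorter unit, 806 CR units remained, 35.9% of CR units: internal 70.0%, start-overlapping 18.0%, end-overlapping 5.96%, partner start covered 24.1% (28.7% reported), protein-coding main partner 91.7%, median overlap 782 bp. With protein-coding partners only, 36.4% of CR units were antisense, 65.8% of them internal and 3.79% enclosing. Without 2L the antisense share was 43.1%. With single-gene partners only, chosen after seeing the data, it was 30.7%, with 53.8% internal, 28.4% start-overlapping, 7.10% enclosing, 35.5% over a partner start and 87.4% with a protein-coding main partner. The alternatives leave out pairs or a whole arm, and why each value moved was not tested. Internal stayed the leading class under each alternative run. An overlap of at least 50 bp, units of at least 200 bp, leaving out pseudogenes, classing by pair and leaving out each other arm moved none of the values. Protein-coding main partners were not recounted where only such partners were kept. Promoter motifs and their alternatives were not run.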
